A study of Mus musculus with 12 samples.

Results

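The subject is a set of 9 transcription factors that define the hepatocyte: Hnf4a, Cebpa, Cebpb, Foxa1, Foxa2, Foxa3, Onecut1, Nr5a2 and Prox1. They were set by gene symbol with no cutoff on measured values, although earlier results of these data were known. They are 9 of the 25164 genes with a count. All 9 passed the filter on low counts and were tested among 13477 genes. Their RNA was measured by sequencing of whole mouse liver in 3 groups with 4 libraries each, drawn from 10 mice assigned to each group. The Control group was fed normal chow throughout the 14 weeks and the HFD group a high-fat diet over the same time. The third group, HFD plus fenofibrate, had 10 weeks of the high-fat diet and then 4 more weeks of it with fenofibrate, a fibrate drug and agonist of the nuclear receptor PPARA, given by gavage. The sources used here do not give the strain, age, sex, dose or time of day at collection, nor say whether the other groups received a vehicle by gavage. The HFD libraries stand in both the diet comparison and the fenofibrate comparison, so the 2 share them.

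Hepatocytes are held in their differentiated state by a small group of factors that bind together at the enhancers and promoters of liver genes and also at one another's genes. HNF4A and NR5A2 are nuclear receptors, FOXA1, FOXA2 and FOXA3 are forkhead proteins that open chromatin for other factors, CEBPA and CEBPB are leucine-zipper proteins, and ONECUT1 and PROX1 are homeodomain proteins. In liver, HNF4A and CEBPA drive genes of metabolism and blood protein synthesis, NR5A2 drives genes of bile acid and cholesterol handling, and CEBPB takes part in the acute phase response.

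The promoters of 3 members are shown because 2 of them, Nr5a2 and Foxa3, were the members that rose with the high-fat diet, and the third, Hnf4a, is transcribed from a pair of starts that a count per gene adds together. Each line is the 250 bases before a transcription start in the RefSeq annotation of GRCm38.p6, on the strand of the gene. Capitals mark matches to one of 6 motifs on either strand: HNF4 (CAAAGTCCA), FOXA (TGTTTNC), C/EBP (TTGCNNAA), ONECUT (ATTGATT), NR5A (CAAGGTCA) and the nuclear receptor half-site (AGGTCA). The half-site AGGTCA lies within the last letters of the NR5A motif, so every NR5A match would hold it.
Nr5a2, outer start, chr1:136960449-136960698, minus strand: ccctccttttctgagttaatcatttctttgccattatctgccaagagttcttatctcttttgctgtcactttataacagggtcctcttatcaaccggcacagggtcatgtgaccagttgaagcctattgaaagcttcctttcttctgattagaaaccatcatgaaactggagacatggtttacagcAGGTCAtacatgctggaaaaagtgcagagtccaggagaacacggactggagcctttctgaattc
Nr5a2, inner start, chr1:136953631-136953880, minus strand: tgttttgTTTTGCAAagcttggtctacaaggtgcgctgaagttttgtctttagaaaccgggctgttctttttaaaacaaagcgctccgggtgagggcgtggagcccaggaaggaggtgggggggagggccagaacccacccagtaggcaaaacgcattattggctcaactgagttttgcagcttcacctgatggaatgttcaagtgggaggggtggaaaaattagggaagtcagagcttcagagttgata
Foxa3, chr7:19023540-19023789, minus strand: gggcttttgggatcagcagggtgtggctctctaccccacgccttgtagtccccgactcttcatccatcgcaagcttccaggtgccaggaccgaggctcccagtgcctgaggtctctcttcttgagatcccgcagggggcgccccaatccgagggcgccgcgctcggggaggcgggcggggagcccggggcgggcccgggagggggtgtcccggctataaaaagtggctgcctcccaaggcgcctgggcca
Hnf4a, outer start, chr2:163506607-163506856, plus strand: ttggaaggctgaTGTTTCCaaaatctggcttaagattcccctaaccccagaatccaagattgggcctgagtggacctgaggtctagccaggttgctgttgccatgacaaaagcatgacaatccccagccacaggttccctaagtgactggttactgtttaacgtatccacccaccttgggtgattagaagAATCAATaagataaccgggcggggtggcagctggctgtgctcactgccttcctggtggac
Hnf4a, inner start, chr2:163546905-163547154, plus strand: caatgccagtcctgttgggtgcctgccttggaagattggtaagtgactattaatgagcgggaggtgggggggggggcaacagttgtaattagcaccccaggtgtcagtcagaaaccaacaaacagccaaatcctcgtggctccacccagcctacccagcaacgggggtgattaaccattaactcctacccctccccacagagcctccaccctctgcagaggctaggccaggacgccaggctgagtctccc

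The outer Nr5a2 window held a nuclear receptor half-site, and its inner window held a C/EBP match. The Foxa3 window, which is 68.8% G and C, held none of the 6 motifs. The outer Hnf4a window held a FOXA and an ONECUT match, and the inner one none of the 6. All 9 members matched the RefSeq table, with 14 windows between them. FOXA was in 3 of 14 windows against 17.8% of the 32851 windows of the table, ONECUT in 2 against 2.61%, C/EBP in 1 against 9.56% and the nuclear receptor half-site in 1 against 14%. HNF4 and NR5A matches were in 0 of the 14 windows, and in 0.384% and 1.33% of all windows. A match describes letters only, and a missing match says only that those letters are not in that window.

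Total counts ran from 15797016 to 18514481 per library, and levels below are in CPM, the usual read count scaled to depth, with library totals adjusted by TMM. The labels name no cage, dissection day or run, so p-values reflect only how these libraries vary, which may in part be technical. As for the tissue label, the 11 hepatocyte markers found of 12 listed were detected in every library. Their sum was 127083 to 157078 CPM of the total counts, and it was not alike across groups. The lowest Control library held 147706 CPM, more than the highest HFD library (136900 CPM) and the highest fenofibrate library (144023 CPM). After TMM scaling, the lowest Control library (150180 CPM) lay just under the highest HFD library (150572 CPM). With the diet, 4 of the 11 markers fell and 0 rose at an adjusted p under 0.05 in edgeR, where 12.8% of all genes changed. With fenofibrate against HFD, 3 rose and 1 fell, where 13.5% of all genes changed. The cause was not tested. In all, 3 libraries stood apart by markers of other tissues, all given as CPM of the total counts. Fenofibrate library 1 held 2200 CPM of 15 pancreatic acinar genes, against at most 31.7 CPM elsewhere, with Pnlip and Cpa1 at 0 in all Control and HFD libraries. Its sum of 7 erythroid genes was 1188 CPM, against 202 to 485 CPM elsewhere. Fenofibrate libraries 1 and 3 held 205 and 159 CPM of 7 striated muscle genes, against at most 0.966 CPM elsewhere. HFD library 1 held 249.7 CPM of 10 sinusoidal endothelial genes and 189 CPM of 13 macrophage and neutrophil genes, against 495 to 527 and 401 to 497 CPM in the other HFD libraries. The clock genes also split the groups: Nr1d1 was at 11.7 ± 3.72, 78.1 ± 10.1 and 103 ± 20.2 CPM in Control, HFD and fenofibrate livers, and Arntl at 31.8 ± 4.87, 11.2 ± 5.15 and 9.83 ± 2.39 (SD, n = 4 each).

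After the high-fat diet, 2 of the 9 factors rose, Nr5a2 by 1.23-fold and Foxa3 by 1.49-fold, and 0 fell, also at an unadjusted p under 0.05 and with DESeq2 or limma-voom. In the same comparison 12.8% of all genes tested changed. Adding fenofibrate to the diet changed 0 of the 9, where 13.5% of all genes changed. Fenofibrate-treated livers set against Control livers had the same 2 members higher, Nr5a2 by 1.29-fold and Foxa3 by 1.54-fold, against a background of 9.19%. The 2 comparisons with Control share the Control libraries, so the second is not an independent repeat of the first. A gene was called changed when its adjusted p was under 0.05 in the quasi-likelihood test of edgeR. The adjustment was by the Benjamini-Hochberg method over all 13477 genes, and every adjusted p below comes from that test unless another is named. For counts at an unadjusted p under 0.05, the share of all genes at that threshold is not given here.

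**Figure D1:**
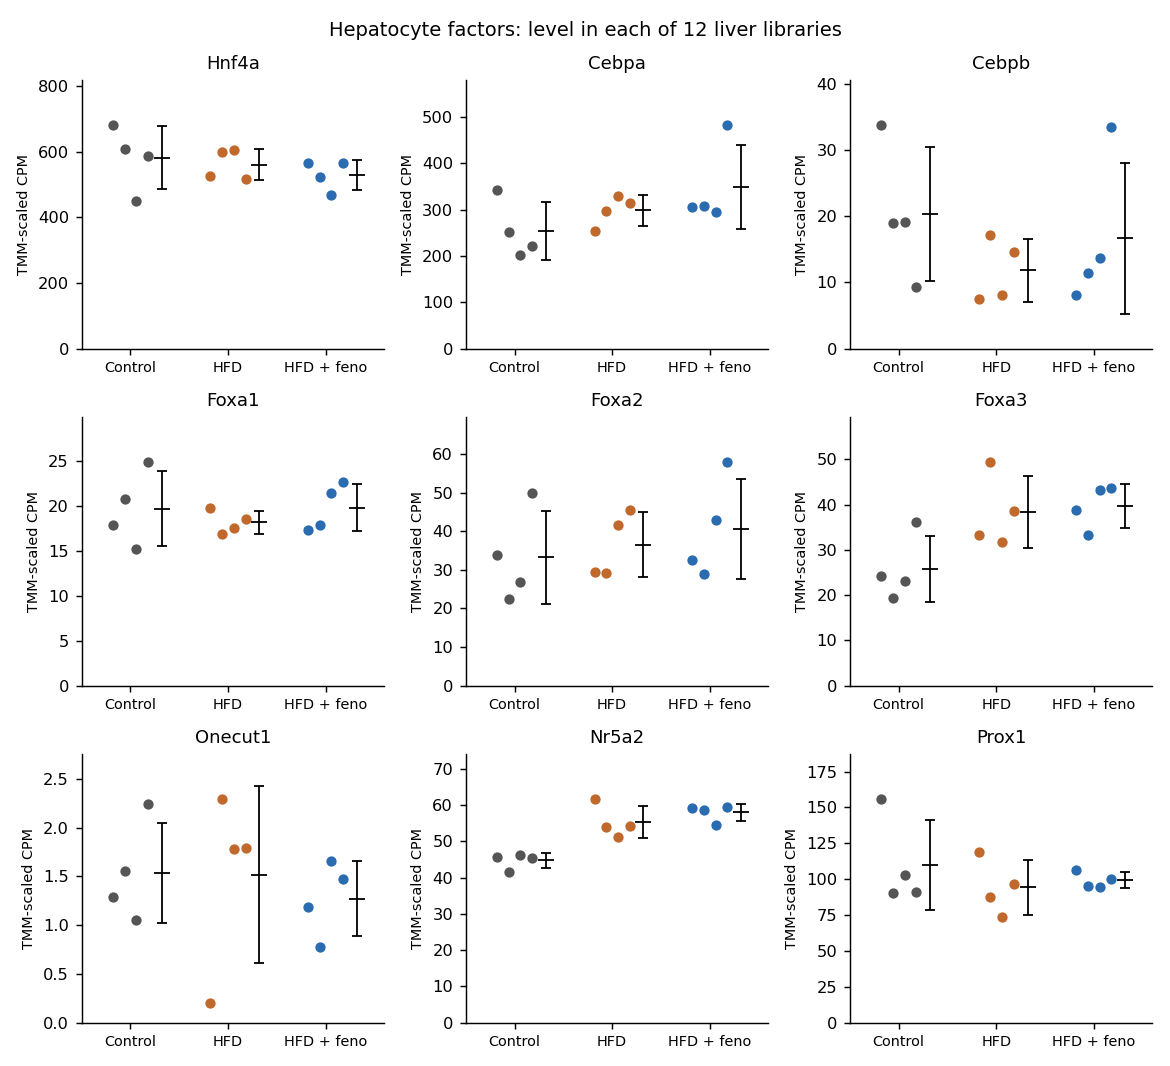
Level of each of the 9 factors in the 12 liver libraries, in TMM-scaled CPM on a linear axis that starts at 0. Each point is 1 library, in replicate order from left to right within a group, and the bar to the right of each group is the mean with its SD (n = 4). The 4 Control libraries of Nr5a2, at 41.6 to 46.1 CPM, lie under all 8 high-fat libraries, at 51.1 to 61.7 CPM, while the groups overlap for every other factor.

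The changes of the members can be set beside those of all genes. The median absolute log2 change of the 9 members was 0.22 with the diet, 0.13 with fenofibrate against HFD and 0.29 with fenofibrate against Control, beside 0.21, 0.24 and 0.20 for all genes tested. Their median signed change was 0.00, 0.08 and 0.01, beside -0.02, 0.01 and -0.01. In the diet comparison and in fenofibrate against Control, 1 of the 9 members (Nr5a2) had groups that did not overlap, while 17.6% and 13.1% of all genes did. In fenofibrate against HFD, 0 of the 9 members had separate groups, against 20.7% of all genes, and 0 of the 9 had an unadjusted p under 0.05. DESeq2 and limma-voom also called 0 members there.

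**Figure D2:**
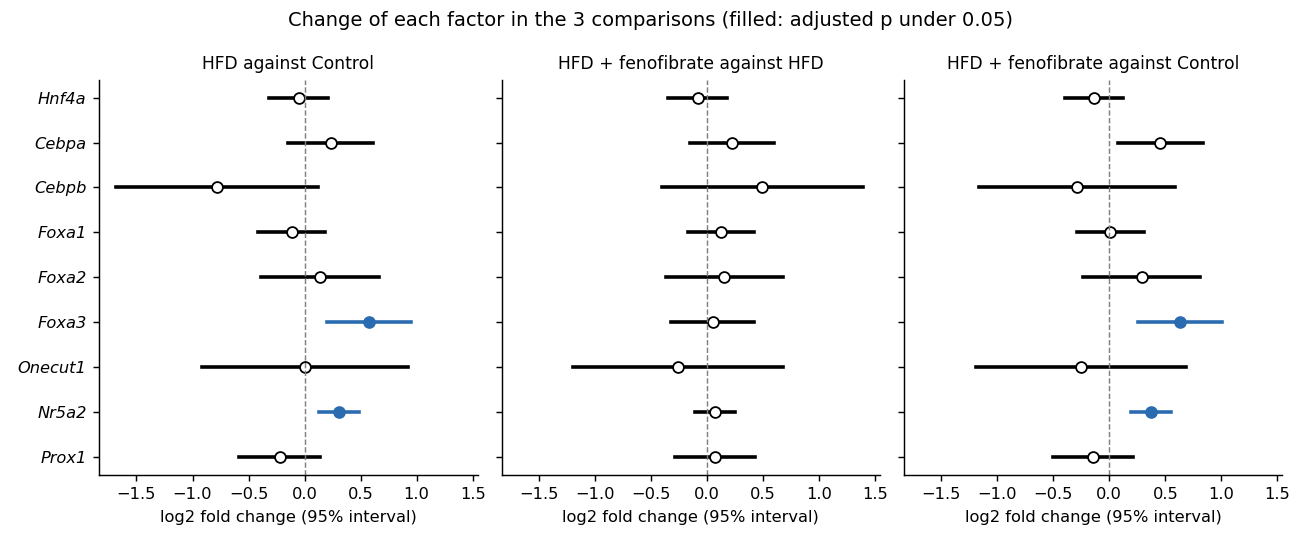
Log2 fold change of each factor with its 95% interval in the 3 comparisons, from edgeR on all 12 libraries. Filled points are called at an adjusted p under 0.05. Nr5a2 and Foxa3 are filled in both comparisons with Control, and 0 of the 9 factors are filled for fenofibrate against HFD, where all 9 intervals cross 0.

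Set on a scale that allows genes to be compared, CPM per kb of exon, Hnf4a and Cebpa stood far above the rest. Hnf4a averaged 116 ± 13.5 CPM per kb and Cebpa 114 ± 27.3 (SD over 12 libraries), and the 2 did not separate: Hnf4a was higher in 8 of 12 libraries. Foxa3 followed at 17.0 ± 4.43, Foxa2 at 15.5 ± 4.54, Prox1 at 12.1 ± 2.44, Cebpb at 10.8 ± 6.06, Nr5a2 at 8.92 ± 1.1 and Foxa1 at 5.77 ± 0.83. Neighbours in that stretch overlapped, although Nr5a2 was above Foxa1 within each of the 12 libraries. The order of the means was not the same in each group. Foxa3 was the sixth in Control livers, at 12.6 ± 3.59, after Foxa2 (14.0 ± 5.09), Cebpb (13.6 ± 6.73) and Prox1 (13.1 ± 3.71), and the third in HFD and fenofibrate livers. Cebpa, at 132 ± 34.3, had a higher mean than Hnf4a, at 110 ± 9.45, in fenofibrate livers (SD, n = 4), where their libraries overlapped. Onecut1 was last at 0.35 ± 0.14 CPM per kb. Only 2 steps of the order were without overlap between libraries, that from Cebpa (lowest 76.2) to Foxa3 (highest 24.3) and that from Foxa1 (lowest 4.55) to Onecut1 (highest 0.558).

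**Figure D3:**
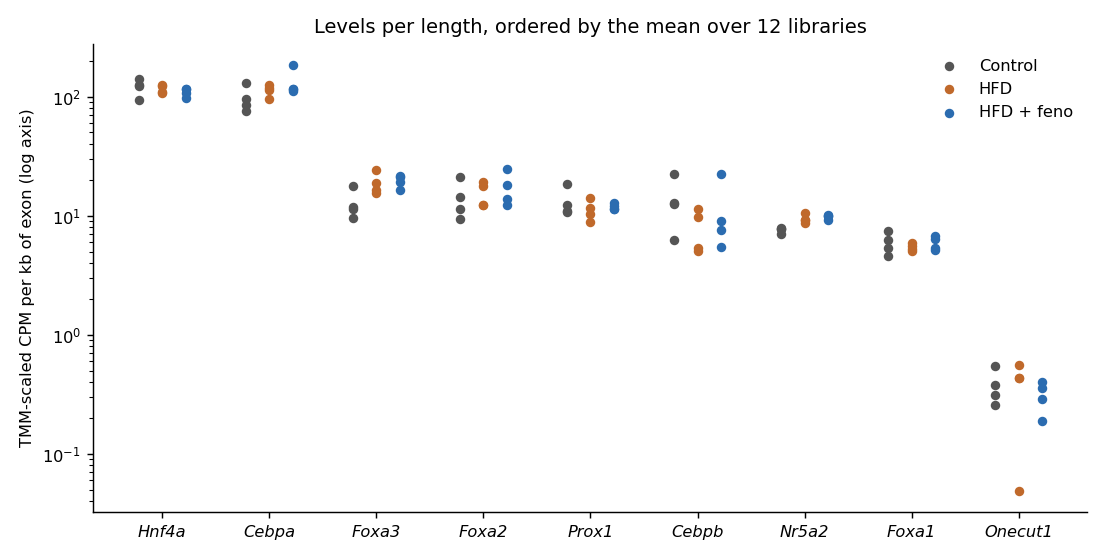
TMM-scaled CPM per kb of exon for each factor on a log axis, ordered by the mean over 12 libraries. Each point is 1 library, coloured by group. Hnf4a and Cebpa lie above 76 CPM per kb in every library, 6 factors lie between 4.55 and 24.5, and Onecut1 lies lowest, with 1 HFD library at 0.0492.

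Nr5a2 (ENSMUSG00000026398, chromosome 1, 136842571 to 136960448, minus strand) encodes the liver receptor homolog that binds phospholipids and drives bile acid synthesis genes. It was at 45.7, 41.6, 46.1 and 45.5 CPM in Control libraries 1 to 4, at 61.7, 54.0, 51.1 and 54.3 CPM in HFD, and at 59.0, 58.6, 54.6 and 59.5 CPM with fenofibrate. Every high-fat library was above every Control library, and the HFD and fenofibrate libraries overlapped. The coefficient of variation of Nr5a2 was 4.63%, 8.17% and 3.91% within the groups, the lowest of the 9 members in Control and fenofibrate livers, while in HFD livers that of Foxa1 was lower, at 6.98%. The diet comparison gave a log2 change of 0.30 ± 0.08 (SE), a 1.23-fold rise with a 95% interval of 1.09 to 1.4, at adjusted p = 0.0277. Fenofibrate against Control gave 0.37 ± 0.08 (adjusted p = 0.0119). Fenofibrate against HFD gave 0.07 ± 0.08, with an interval of -0.11 to 0.25 on the log2 scale (adjusted p = 0.612).

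The rise of Nr5a2 with the diet was close to the threshold. It was lost in 6 of 22 alternative settings. It was not called without Control library 2 (log2 change 0.27, adjusted p = 0.0679), HFD library 1 (0.25, 0.0841), HFD library 2 (0.32, 0.0534) or HFD library 4 (0.31, 0.0574), each left out in turn. HFD library 1, the library low in endothelial and macrophage genes, was the highest for Nr5a2. In whole liver, fewer cells of a type and less RNA per cell cannot be told apart, and the part of cell makeup or of the clock genes in this rise was not tested. Pancreatic acinar cells also use Nr5a2. Fenofibrate library 1, which held acinar RNA, was at 59.0 CPM and the other 3 at 54.6 to 59.5 CPM, and the part of acinar RNA in the Nr5a2 level was not tested. Without fenofibrate libraries 1 and 3, Nr5a2 gave 0.41 against Control (adjusted p = 0.0657).

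Hnf4a (ENSMUSG00000017950, chromosome 2, 163506808 to 163572910, plus strand), the central nuclear receptor of the hepatocyte, did not pass the test in any comparison. Its libraries stood at 683, 607, 450 and 587 CPM in Control, 525, 598, 605 and 516 in HFD, and 564, 522, 468 and 565 with fenofibrate. Control libraries held both the highest and the lowest value, and all 3 groups overlapped. The log2 change was -0.05 ± 0.12 with the diet (95% interval -0.31 to 0.21, adjusted p = 0.83). It was -0.08 ± 0.12 for fenofibrate against HFD (-0.34 to 0.18, adjusted p = 0.682). These values rest on 7254 to 12226 reads per library. Reads from the outer and inner starts shown above are summed in this count, so a shift between them would not be seen.

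Hnf4aos, an antisense gene that overlaps the 5′ end of Hnf4a without sharing exons, had 49 to 165 reads per library. It stood at 5.03 ± 1.83 CPM in Control, 4.39 ± 1.34 in HFD and 7.28 ± 2.01 with fenofibrate (SD, n = 4). Fenofibrate against HFD gave 0.72 ± 0.27 on the log2 scale (adjusted p = 0.0799), which did not pass. The small nuclear RNA gene Gm25881, also inside Hnf4a, had at most 3 reads.

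Of the forkhead genes, Foxa3 changed with the diet (adjusted p = 0.0563 with no scaling beyond the total) and its paralogs did not pass the test, a difference between genes that was not itself tested. Foxa3 (ENSMUSG00000040891, chromosome 7, 19013284 to 19023538, minus strand) is the forkhead family member that also takes part in glucose homeostasis. It was at 24.2, 19.4, 23.0 and 36.2 CPM in Control, 33.4, 49.5, 31.8 and 38.6 in HFD, and 38.8, 33.3, 43.2 and 43.6 with fenofibrate. Control libraries 1 to 3 were below all 8 high-fat libraries, and Control library 4 was above HFD libraries 1 and 3 and fenofibrate library 2, so the groups overlapped. The diet gave a log2 change of 0.57 ± 0.18 (1.49-fold, 95% interval 1.15 to 1.93, adjusted p = 0.0442). Fenofibrate against Control gave 0.63 ± 0.18 (adjusted p = 0.0371), and fenofibrate against HFD gave 0.05 ± 0.17 (adjusted p = 0.868). The diet call was lost in 12 of 22 alternative settings, with log2 changes of 0.43 to 0.62 and adjusted p up to 0.150 in those 12. Without HFD library 2 it was 0.43 (adjusted p = 0.150). The call for fenofibrate against Control was lost in 8 of 22 alternative settings. In 7 of these a single library was left out (0.51 to 0.66, adjusted p up to 0.114). Those were Control libraries 1, 2 or 3, HFD library 4 and fenofibrate libraries 1, 3 or 4. Without fenofibrate libraries 1 and 3 the change against Control was 0.59 (adjusted p = 0.215).

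Foxa2 (ENSMUSG00000037025, chromosome 2, 148042877 to 148046969, minus strand), a regulator of bile acid and lipid genes in adult liver, was at 33.8, 22.4, 26.8 and 49.9 CPM in Control. HFD libraries were at 29.3, 29.3, 41.7 and 45.6 CPM and fenofibrate libraries at 32.5, 28.9, 42.9 and 58.0 CPM. The spread within each group was wider than the distance between them, and the log2 change was 0.14 ± 0.25 with the diet (adjusted p = 0.776) and 0.15 ± 0.25 for fenofibrate against HFD (adjusted p = 0.702). Foxa1 (ENSMUSG00000035451, chromosome 12, 57540628 to 57546916, minus strand), which opens liver chromatin during development together with Foxa2, was the scarcest of the 3. It averaged 19.7 ± 4.19, 18.2 ± 1.27 and 19.8 ± 2.63 CPM in Control, HFD and fenofibrate libraries, and gave a log2 change of -0.12 ± 0.14 with the diet (adjusted p = 0.648).

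The make-up of the family can be read per length. Foxa3 was 38.9% ± 1.87 of the summed Foxa1, Foxa2 and Foxa3 level in Control (SD, n = 4), 47.3% ± 7.77 in HFD and 46.3% ± 4.13 with fenofibrate. Control libraries ran from 37.7% to 41.6% and HFD libraries from 40.6% to 58.2%, so the groups met at their edges. Foxa2 made up 42.4% ± 3.74, 38.8% ± 7.51 and 39.5% ± 4.91, so its mean share was above that of Foxa3 in Control livers and below it in both high-fat groups, with overlap between libraries. Foxa1 made up 18.7% ± 4.09, 13.9% ± 2.23 and 14.1% ± 1.24. These shares follow from the levels above and were not tested.

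Cebpa (ENSMUSG00000034957, chromosome 7, 35119293 to 35121928, plus strand), a driver of gluconeogenic and urea cycle genes, was at 341, 251, 201 and 222 CPM in Control. HFD libraries were at 253, 297, 329 and 313 CPM, and fenofibrate libraries at 306, 308, 295 and 483 CPM. Fenofibrate libraries were above Control libraries 2 to 4, and Control library 1 was above 3 of them. Fenofibrate against Control gave a log2 change of 0.46 ± 0.18 (95% interval 0.08 to 0.83), with an unadjusted p of 0.0209 and an adjusted p of 0.124 from edgeR. It passed without Control library 1 (0.65, adjusted p = 0.0219) and with no scaling beyond the total (0.66, adjusted p = 0.0299), and without fenofibrate library 4 it was 0.27 (adjusted p = 0.342). The diet gave 0.23 ± 0.18 (adjusted p = 0.44) and fenofibrate against HFD 0.22 ± 0.18 (adjusted p = 0.409).

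Cebpb (ENSMUSG00000056501, chromosome 2, 167688915 to 167690418, plus strand), which is induced by cytokines and fasting signals, was the most scattered of the well-counted members. Control libraries stood at 33.9, 19.04, 19.2 and 9.38 CPM, HFD libraries at 7.55, 17.2, 8.09 and 14.6, and fenofibrate libraries at 8.14, 11.5, 13.7 and 33.5. Single libraries of Control and of fenofibrate were at least 1.5 times any other library of their group, and all groups overlapped. The coefficient of variation was 49.7%, 40.3% and 68.4%. The diet gave -0.78 ± 0.42 on the log2 scale (95% interval -1.68 to 0.12, adjusted p = 0.253), and fenofibrate against HFD gave 0.49 ± 0.42 (adjusted p = 0.451). Reads of Cebpb per 100 reads of Cebpa were 7.83 ± 2.61 in Control, 3.97 ± 1.53 in HFD and 4.49 ± 1.82 with fenofibrate (SD, n = 4), with overlap between the groups.

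Both C/EBP genes are overlapped by a gene on the other strand with shared exon positions. The sources used here do not say whether the authors counted by strand, and without strand the reads at such positions cannot be told apart. Tmem189, which reaches to position 167689822 inside Cebpb, had 167 to 275 reads per library against 112 to 681 for Cebpb. If strand was not used, the Cebpb count is uncertain by an amount that these reads do not show. The same then holds for its level per kb and its ratio to Cebpa. Tmem189 was at 13.2 ± 1.63, 12.3 ± 1.5 and 12.3 ± 1.36 CPM and did not pass the test in any comparison. Gm45091, antisense to Cebpa, had 16 to 56 reads against at least 3234 for Cebpa.

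Onecut1 (ENSMUSG00000043013, chromosome 9, 74861921 to 74891781, plus strand), a factor of liver and bile duct development, was the member with the fewest reads. It had 23, 24, 17 and 36 reads in Control, 3, 39, 29 and 29 in HFD, and 24, 13, 34 and 30 with fenofibrate. HFD library 1 stood far below the other 11. The diet gave a log2 change of 0.00 ± 0.43, with a 95% interval of -0.92 to 0.92 (adjusted p = 0.998), which does not exclude a change of almost 2-fold either way. Without HFD library 1 the change was 0.35 (adjusted p = 0.533). That library also held the lowest sinusoidal endothelial sum, and over the 12 libraries the genes most like Onecut1 were F8 (r = 0.93) and Oit3 (r = 0.93), both made by sinusoidal endothelial cells. Oit3 is 1 of the 10 genes in that marker sum, and the part of cell makeup in the Onecut1 values was not tested.

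Prox1 (ENSMUSG00000010175, chromosome 1, 190118035 to 190170714, minus strand), a homeodomain protein that partners HNF4A and NR5A2 and also marks lymphatic endothelium, was at 156, 90.5, 103 and 91.1 CPM in Control. HFD libraries were at 119, 87.4, 73.7 and 97.0 CPM and fenofibrate libraries at 107, 95.6, 94.9 and 100.4 CPM. The highest Control library stood alone above the other 11, and all 3 groups overlapped. The log2 change was -0.22 ± 0.17 with the diet (adjusted p = 0.431) and 0.08 ± 0.17 for fenofibrate against HFD (adjusted p = 0.794). The 8 genes listed as lymphatic endothelial markers summed to 55.7 to 89.5 CPM of the total counts in HFD. The sum was lowest in HFD library 1, whose Prox1 was the highest of its group. Prox1os, which overlaps Prox1, is 1 of the 8. Reln and Flt4, with means of 43.6 and 21.4 TMM-scaled CPM in HFD, made up most of the sum. How far it follows lymphatic endothelium was not tested. Prox1os, antisense with overlapping exons, had 60 to 155 reads against at least 1203 for Prox1 and did not pass in any comparison, and Gm28172 had at most 13.

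Genes linked to the factors changed in each of the 3 comparisons. The 6 lists of target or linked genes hold 101 genes, of which 20 are in more than 1 list, so the counts below are not separate. They were compiled from general knowledge of the factors, but with earlier results of these data known. The part of that choice in the counts was not tested, and no binding was measured here. Each count stands beside the share of all genes that changed. That share was 12.8% with the diet, 13.5% with fenofibrate against HFD and 9.19% with fenofibrate against Control.

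Of 32 HNF4A target genes tested, 7 rose and 5 fell with the diet, where 12.8% of all genes changed (median log2 change -0.01, beside -0.02 for all genes). Pklr, liver pyruvate kinase, rose from 60.2 ± 8.66 to 149 ± 28.5 CPM (log2 change 1.31 ± 0.14, adjusted p = 4.3e-05), and Slc2a2, the glucose transporter of hepatocytes, from 204 ± 28.9 to 365 ± 23.5 CPM (0.84 ± 0.11, adjusted p = 0.000245). Cyp8b1, an enzyme of cholic acid synthesis, fell from 942 ± 293 to 376 ± 83.8 CPM (-1.33 ± 0.23, adjusted p = 0.00164). Apoc2 was counted at a low level and fell from 7.88 ± 0.916 to 3.49 ± 1.04 CPM (-1.18 ± 0.20, adjusted p = 0.00123). Fenofibrate against HFD had 4 higher and 8 lower (median -0.15, beside 0.01 for all genes). Ugt2b1, a glucuronosyltransferase, fell from 585 ± 102 to 201 ± 94.8 CPM (-1.54 ± 0.27, adjusted p = 0.00333), Otc of the urea cycle fell by 0.64 ± 0.14, and Apoa4 by 1.02 ± 0.19. Against Control, fenofibrate livers had 5 higher and 4 lower. Targets thus moved both ways while Hnf4a itself did not pass the test.

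Of 23 CEBPA targets tested, 3 rose with the diet and 4 fell, where 12.8% of all genes changed (median -0.10, beside -0.02 for all genes). Ass1 and Cps1, both of the urea cycle, fell by 1.35 ± 0.14 and 1.10 ± 0.14 on the log2 scale, while Bdh1 of ketone metabolism rose by 1.26 ± 0.14. With fenofibrate against HFD, 2 rose and 7 fell (median -0.29). The 2 that rose were Ass1, from 1252 ± 110 to 2567 ± 309 CPM (1.04 ± 0.13), and Cps1, from 2309 ± 282 to 4546 ± 909 CPM (0.98 ± 0.14). Against Control, 1 rose and 4 fell, with G6pc, the last enzyme of gluconeogenesis, falling by 1.42 ± 0.29.

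Of 23 CEBPB acute phase targets tested of 24 listed, 1 rose and 3 fell with the diet, and 3 rose and 4 fell with fenofibrate against HFD. The shares of all genes that changed there were 12.8% and 13.5%. The alpha-1-acid glycoprotein gene Orm2 fell with the diet from 16.2 ± 9.54 to 6.46 ± 1.58 CPM (-1.33 ± 0.37, adjusted p = 0.0276). With fenofibrate, Lcn2, lipocalin, rose from 3.01 ± 0.483 to 13.8 ± 5.13 CPM (2.19 ± 0.34, adjusted p = 0.00186), Lbp, the endotoxin-binding protein, by 0.67 ± 0.12, and Serpina3n by 0.64 ± 0.12, while Orm1 fell by 0.72 ± 0.19. Acute phase genes thus moved both ways. Against Control, fenofibrate livers had 3 higher and 4 lower. Orm2 no longer passed with Control library 3 left out (-0.83, adjusted p = 0.0968), nor with HFD libraries 1, 2 or 4 left out (-1.25 to -1.31). The same held for Orm1 without HFD libraries 1 or 4 or fenofibrate library 3 (-0.54 to -0.68).

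Of 22 FOXA targets, 6 rose and 3 fell with the diet (median 0.04), and 1 rose and 5 fell with fenofibrate against HFD (median -0.18). The shares of all genes that changed there were 12.8% and 13.5%. Cyp7a1, which starts bile acid synthesis from cholesterol, fell with the diet from 121 ± 71.0 to 40.2 ± 21.7 CPM (-1.59 ± 0.40, adjusted p = 0.0163), with overlap between the groups, and rose with fenofibrate to 122 ± 46.8 CPM (1.6 ± 0.40, adjusted p = 0.018). It was the 1 FOXA target that rose. For Cyp7a1, leaving out Control library 2 gave -1.11 with the diet (adjusted p = 0.0539), and leaving out HFD library 2 gave -1.48 (adjusted p = 0.0515). For fenofibrate it was 1.57 with HFD library 1 left out (adjusted p = 0.0538), so each call was then lost. Abcb11, the bile salt export pump, fell by 0.72 ± 0.13 and Lipc, hepatic lipase, by 0.61 ± 0.12. Against Control, 3 were higher and 1 lower with fenofibrate.

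Of 20 NR5A2 targets, 7 rose and 5 fell with the diet (median -0.03), where 12.8% of all genes changed. Dio1, a deiodinase, rose from 83.8 ± 20.4 to 206 ± 27.2 CPM (1.3 ± 0.19, adjusted p = 0.000487). Cyp7a1 and Cyp8b1, the bile acid synthesis genes known as its classical targets, fell as given above, in the same comparison in which Nr5a2 rose. With fenofibrate against HFD, 5 rose and 2 fell. Cyp7a1 and Cyp8b1 rose, the second from 376 ± 83.8 to 633 ± 183 CPM (0.75 ± 0.23, adjusted p = 0.0412), and Dio1 fell to 79.4 ± 20.4 CPM (-1.37 ± 0.19). Against Control, 4 were higher and 0 lower in edgeR. DESeq2 and limma-voom also called 0 lower, and 5 were lower at an unadjusted p under 0.05. The 4 included the sterol exporter genes Abcg5 (0.60 ± 0.12) and Abcg8 (0.69 ± 0.18). The rise of Cyp8b1 was lost when any HFD library or fenofibrate libraries 2 or 3 were left out (0.58 to 0.85, adjusted p up to 0.109), and with the replicate block (0.72, adjusted p = 0.0601). The rise of Abcg8 was lost without Control libraries 2, 3 or 4 or fenofibrate libraries 1 or 3 (0.56 to 0.69).

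Of 14 genes linked to ONECUT1 or PROX1, 1 rose and 3 fell with the diet, and 3 rose and 2 fell with fenofibrate against HFD. Against Control, 1 rose and 2 fell with fenofibrate. The shares of all genes that changed in the 3 comparisons were 12.8%, 13.5% and 9.19%. Cyp2c29, a drug-metabolizing cytochrome P450, fell by 1.19 ± 0.15 on the log2 scale with fenofibrate and Mttp, which loads lipid onto lipoproteins, by 0.47 ± 0.12. The Mttp call was lost without HFD libraries 1 or 4 or fenofibrate libraries 1 or 3 (-0.40 to -0.46).

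The 2 libraries with muscle RNA, 1 of them also with acinar RNA, are in all fenofibrate counts above. Without fenofibrate libraries 1 and 3, which leaves 2 in that group, 124 genes in place of 1815 passed against HFD. The HNF4A targets then had 1 higher and 1 lower, the CEBPA targets 2 and 1, the CEBPB targets 1 and 0, the FOXA targets 1 and 0, the NR5A2 targets 1 and 1, and the genes linked to ONECUT1 or PROX1 1 and 1. Of 32 genes called there and named by the rule for lists, 14 were lost, among them Otc (-0.42, adjusted p = 0.187), Lipc (-0.47, adjusted p = 0.128), Abcb11 (-0.53, adjusted p = 0.0652), Apoa4 (-0.77, adjusted p = 0.113), Lbp (0.60, adjusted p = 0.0903) and Serpina3n (0.57, adjusted p = 0.0792). Ass1, Cps1, Lcn2, Cyp7a1, Dio1, Ugt2b1 and Cyp2c29 still passed. Against Control, 12 of 31 such genes were lost, G6pc (-1.40, adjusted p = 0.069) and Abcg5 (0.43, adjusted p = 0.0837) among them. The part of the smaller group and of the foreign RNA in these losses was not tested.

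**Figure D4:**
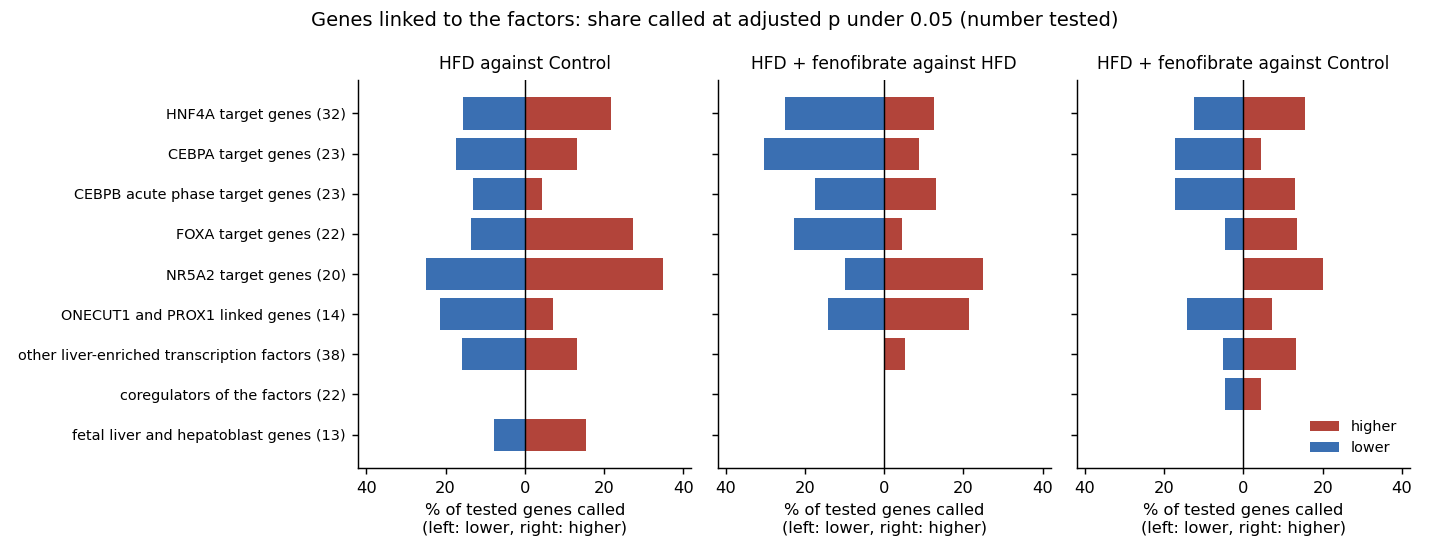
Share of the tested genes of each list called higher (right, red) or lower (left, blue) at an adjusted p under 0.05 in the 3 comparisons, with the number tested in brackets. NR5A2 targets show 7 of 20 higher and 5 of 20 lower with the diet, and the coregulators show 0 changed genes in the first 2 comparisons.

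Of 38 other liver-enriched transcription factors tested, 5 rose and 6 fell with the diet, where 12.8% of all genes changed. Hhex, a homeobox factor, fell from 95.1 ± 31.4 to 48.2 ± 8.19 CPM (-0.98 ± 0.26, adjusted p = 0.0232). Nr0b2, the corepressor SHP that restrains NR5A2, rose from 35.8 ± 5.39 to 86.1 ± 39.2 CPM (1.26 ± 0.34, adjusted p = 0.0238). Both Hhex (-0.75 to -0.97 without Control library 4 or HFD libraries 1, 2 or 4) and Nr0b2 (0.92 to 1.22 without Control libraries 1 or 2 or HFD library 1) lost their call when single libraries were left out. Dbp, a clock-output factor, rose by 3.67 ± 0.53 on the log2 scale. The list shares Dbp, Tef and Nfil3, among others, with the clock genes, of which 6 of 16 rose and 5 fell.

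With fenofibrate against HFD, 2 of these 38 rose and 0 fell in edgeR, where 13.5% of all genes changed. DESeq2 and limma-voom also called 0 lower, and 2 were lower at an unadjusted p under 0.05. Without fenofibrate libraries 1 and 3, 0 rose and 0 fell. The 13 cholangiocyte genes had a sum of 73.2 to 105 CPM of the total counts in Control livers, 56.5 to 96.9 in HFD livers and 62.4 to 78.8 in fenofibrate livers.

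Of 22 coregulators that work with the factors, 0 passed with the diet in edgeR, where 12.8% of all genes did. There, 1 was higher and 4 lower at an unadjusted p under 0.05. The 2 most abundant, Lrpprc and Ncor1, gave 0.08 ± 0.09 and 0.04 ± 0.10. With fenofibrate against HFD, 0 passed in edgeR, where 13.5% of all genes did. At an unadjusted p under 0.05, 9 of the 22 were higher and 0 lower, with no share of all genes to set beside them. The median log2 change of the 22 was 0.21, beside 0.01 for all genes. In each of these comparisons DESeq2 called 1 higher and limma-voom 0. Against Control, 1 of the 22 was higher and 1 lower with fenofibrate, where 9.19% of all genes changed. Hdac3, a histone deacetylase, was higher (0.28 ± 0.08, adjusted p = 0.0404), and Nrip1, a nuclear receptor corepressor, was lower (-0.64 ± 0.16, adjusted p = 0.0213). The Hdac3 call was lost in 12 of 22 alternative settings, and that of Nrip1 in 4: without Control library 1, without fenofibrate library 3, without fenofibrate libraries 1 and 3 (-0.67, adjusted p = 0.0936) and with no scaling beyond the total (-0.43, adjusted p = 0.1).

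Of 13 fetal liver and hepatoblast genes tested of 22 listed, 2 rose and 1 fell with the diet, where 12.8% of all genes changed. Afp, alpha-fetoprotein, rose from 1.28 ± 0.429 to 2.56 ± 0.797 CPM (adjusted p = 0.0372) and Ly6d from 1.49 ± 0.571 to 3.63 ± 1.75 CPM (adjusted p = 0.0304), both from low levels, and Sox9, which marks bile ducts and progenitors, fell from 8.61 ± 2.40 to 4.50 ± 1.3 CPM (adjusted p = 0.0166). The rise of Afp was lost when Control libraries 2 or 3 or HFD libraries 2, 3 or 4 were left out, that of Ly6d without Control libraries 1 or 4 or HFD libraries 1 or 4, and the fall of Sox9 without Control library 1 (-0.74, adjusted p = 0.0611). With the replicate block, Afp and Ly6d had adjusted p of 0.066 and 0.0587. In both fenofibrate comparisons 0 of the 13 passed in edgeR, where 13.5% (against HFD) and 9.19% (against Control) of all genes did. At an unadjusted p under 0.05, 1 was higher and 1 lower against HFD, and 1 higher and 2 lower against Control. DESeq2 called 1 higher against HFD and limma-voom 0.

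Among themselves the members varied largely apart. Over the 12 libraries the highest Pearson correlation of log2 CPM between a pair of members was 0.71, between Nr5a2 and Foxa3, and the libraries share the group differences already given. Foxa2 and Foxa3 had r = 0.58 and Foxa1 and Foxa2 had r = 0.55. Among 7076 other genes at 10 CPM or more, those most like Nr5a2 were Stradb (r = 0.94) and Cyp2d37-ps (r = 0.93), and those most like Foxa3 were Zfp706 and Dnajb2 (r = 0.88 each). Cebpa was most like Itgb5 and Ltbr (r = 0.95 each), Cebpb most like Hnrnpa0 (r = 0.91) and Clmn (r = 0.87), and Hnf4a most like Pcm1 and Cand1 (r = 0.85 each). For Foxa1 these were Fxr2 (r = 0.84) and Tarsl2 (r = 0.81), for Foxa2 Phlda1 (r = 0.88) and Foxq1 (r = 0.85), and for Prox1 Rmnd5a (r = 0.88) and Fzd4 (r = 0.85). These are the highest of many values over 12 libraries and describe only these libraries.

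The authors' deposited table gave the same 2 members an adjusted p under 0.05 with the diet, with log2 fold changes of 0.32 for Nr5a2 (adjusted p = 0.0209) and 0.59 for Foxa3 (adjusted p = 0.035), although its own significance column marks both as not significant. For fenofibrate against HFD, the lowest adjusted p of a member in the authors' deposited table was 0.373, for Cebpa.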

How the data were processed

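Liver RNA was analysed in 12 libraries, 4 per group. The deposited values are raw counts per Ensembl gene, per the file headers, in 2 tables that both hold the HFD libraries. Per the submitters' processing notes, the tools were HTSeq 0.6.0, HISAT2 2.0.5 and StringTie 1.3.2d, with no role given. The sources used here name neither the strand setting nor the annotation release. The labels list mm8 and mm9, but positions match GRCm38. Per the file headers, the authors also deposited a log2 fold change, a fold change (a ratio), a mean signal over the 8 libraries of each table, a p-value and an adjusted p-value for each gene, from a test that is not named. The tables share 22657 genes, and genes listed in one only (1118 with the diet, 1389 with fenofibrate) were given counts of 0 in the other. Dates stood in place of 22 symbols and were restored by identifier.

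Genes passing filterByExpr (13477 of 25164, holding 99.87% of counts) were fitted in edgeR 4.0.16 (R 4.3.3) with TMM factors, a quasi-likelihood model of 3 group means over all 12 libraries, and Benjamini-Hochberg adjustment over all genes tested. A prior count of 0.125 entered the log2 fold changes and one of 2 the log2 CPM behind correlations. Standard errors (SE) were derived from the F statistic of each change. The model was tested on simulated counts. The common biological coefficient of variation was 0.155, and chi-square per gene between libraries of a group was 13.9 to 38.5, so the spread exceeded counting error. Exon lengths are from GENCODE M21 and promoters from RefSeq.

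The members and 20 gene lists were chosen with earlier results of these data known. All 9 members are named, with up to 4 changed genes of each list with the largest change and at least 1 CPM (the 2 most abundant where none changed), overlapping genes, and the 2 genes at 10 CPM or more most correlated with each member. Some genes that this rule names are not reported here. Alternatives were DESeq2 1.42.0, limma-voom (limma 3.58.1), other scaling and filters, only the 8 libraries compared, a replicate block, stricter thresholds, and libraries left out.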

Additional observations from a re-analysis of the deposited data

Results flagged for a closer look

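For 3 genes, 1 library lay far from the other 3 of its group, by the gap to the nearest library over the range of the group. Chance gives about 1 such library in 20 groups, and 3 of 42 groups tested had one. Cebpa was at 483 CPM in fenofibrate library 4, where the other 3 fenofibrate libraries ran from 295 to 308 CPM. Nr5a2 was at 41.6 CPM in Control library 2, where the other Control libraries ran from 45.5 to 46.1 CPM. Gm45091, antisense to Cebpa, was at 2.30 CPM in Control library 3.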

How the results depend on the processing

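Under 22 alternatives a member, Nr5a2 and Foxa3 kept a positive log2 change in both comparisons with Control, also where their calls were lost. The change itself was smaller in some of these. For Foxa3 the lowest was 0.43 with the diet, beside 0.57 in the main fit, and 0.51 against Control with fenofibrate, beside 0.63. For Nr5a2 with the diet the lowest was 0.25, beside 0.30. Replicate numbers were not taken as pairs, since after group means were removed the correlation of libraries with the same number was -0.175 to 0.139 (mean 0.003). With the replicate block, Nr5a2 gave 0.30 (adjusted p = 0.0443) and Foxa3 0.60 (adjusted p = 0.0457) with the diet, and the 2, 0 and 2 members called did not change in number. Members called with the diet were 1 with no scaling beyond the total, with no filter, with a mean of at least 1 CPM and without fenofibrate libraries 1 and 3, and 0 with only the 8 libraries compared, at an adjusted p under 0.01 or with at least 1.5-fold. They were 0 to 2 with single libraries left out. For fenofibrate against Control they were 0 without fenofibrate libraries 1 and 3 and at 0.01, 1 at 1.5-fold, 3 with no scaling beyond the total (Cebpa added), and 1 to 2 with libraries left out. The cause was not tested.

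All genes called with the diet were 703 at 0.01, 960 at 1.5-fold and 1110 to 1762 with libraries left out (lowest without HFD library 4). For fenofibrate against HFD they were 124 without fenofibrate libraries 1 and 3, 462 at 0.01, 782 at 1.5-fold and 610 to 2417 with libraries left out (lowest without fenofibrate library 3). For fenofibrate against Control they were 2398 with no scaling beyond the total, 373 without fenofibrate libraries 1 and 3, 452 at 0.01, 698 at 1.5-fold and 717 to 1710 with libraries left out. No scaling beyond the total moved the median log2 change of all genes by 0.17 for fenofibrate against HFD and by 0.21 against Control.

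Directions that turned were all of changes that did not pass. With the diet, leaving out libraries gave Hnf4a -0.16 to 0.046, Foxa1 -0.22 to 0.018, Foxa2 -0.012 to 0.40, Onecut1 -0.27 to 0.35, Prox1 -0.35 to 0.0028, Ncor1 -0.028 to 0.12, Hnf4aos -0.43 to 0.058 and Gm45091 -0.0059 to 0.56. Onecut1 was -0.0017 with a mean of at least 1 CPM, -0.32 with limma-voom and -0.072 with the replicate block. For fenofibrate against HFD, leaving out libraries gave Cebpb -0.092 to 0.73, Foxa2 -0.065 to 0.29, Foxa3 -0.021 to 0.20, Onecut1 -0.61 to 0.012, Prox1 -0.016 to 0.21, Pkm -0.18 to 0.071 and Tmem189 -0.036 to 0.10. With no scaling beyond the total Hnf4a was 0.078, Ncor1 0.076 and Pkm 0.11, and with limma-voom Onecut1 was 0.089. Tmem189 was -0.0039 with no filter, -0.00038 with DESeq2 and -0.011 without fenofibrate libraries 1 and 3. For fenofibrate against Control, leaving out libraries gave Cebpb -0.87 to 0.096, Foxa1 -0.097 to 0.14, Prox1 -0.23 to 0.085 and Aldoa -0.12 to 0.00017. With no scaling beyond the total Hnf4a was 0.073, Prox1 0.052, Aldoa 0.15 and Tmem189 0.12, and without fenofibrate libraries 1 and 3 Cebpb was 0.16 and Pkm -0.18.

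Onecut1 had the least depth of the members, with 3 to 39 reads per library, and the others had at least 112.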
